A study of Mus musculus with 6 samples.

Results

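Neurog1, Neurog2, Neurog3, Neurod1, Neurod4 and Atoh1 encode proneural basic helix-loop-helix (bHLH) transcription factors, and Tcf3, Tcf4 and Tcf12 encode the E-proteins with which such factors pair. These 9 genes, listed by name with earlier results of these data known, were taken from the deposited RNA-seq table by their names and not by a threshold on their values, and each has a single entry among the 23235 entries of the table. The 6 proneural genes and the 3 E-protein genes are described below in ESCs and in NCs, in FPKM (fragments assigned to a gene, scaled to transcript length and to the mapped total).

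The study compared a mouse embryonic stem cell line, E14Tg2a, at passages 37 to 40, in 2 states. ESCs were grown in medium containing serum and Leukemia Inhibitory Factor (LIF), the cytokine that holds them in self-renewal, and gave 3 samples. NCs were monolayers of the same line, without LIF, that had received 1 µM retinoic acid (RA) for 2 days (48 h), and gave the other 3 samples. No gene was deleted, overexpressed or knocked down in these 6 samples, and the line is a single established one, so the values describe one genetic background. NC stands for neuronal cell in the study, whereas the source given in the labels is an embryonic stem cell for both groups.

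The authors deposited 1 FPKM value per gene and condition, estimated from the 3 replicates together. No value of a single sample was used here, so no SD, n or p-value stands beside any result and no difference between ESCs and NCs could be set against the spread between replicates. A gene was counted as up-regulated or down-regulated in NCs when its FPKM reached 1 in at least 1 condition and differed by at least 2-fold. These criteria were met by 12.5% of the 13293 entries with such an FPKM in the upward direction and by 10.6% in the downward direction. Added over the table, FPKM came to 770592 for ESCs and 628679 for NCs. When both conditions were rescaled to the same sum, all log2 ratios of NCs to ESCs moved up by 0.29, and the upward share of the counted genes went from 54.0% to 71.7%. Changes are given on the deposited scale, where the median log2 ratio was -0.05 over genes that reached 1 FPKM in each condition.

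Proneural bHLH factors commit progenitors to a neuronal fate. They bind the E-box, a short DNA word written CANNTG, almost always as heterodimers with a broadly expressed E-protein, and they switch on Notch ligands, later bHLH genes and the neuronal program. Id proteins carry the helix-loop-helix but no DNA-binding region, so they tie up E-proteins, while Hes and Hey factors repress the proneural genes themselves. Among the proneural genes, the neurogenins act early in neural progenitors, the NeuroD genes act later in neurons and in endocrine cells, and Atoh1 specifies hair cells, cerebellar granule neurons and dorsal spinal interneurons.

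The sequences just upstream of the transcription starts show which of these genes carry, close to their start, the E-box that the factors themselves bind or the AGGTCA word of retinoid receptors. RefSeq (GRCm38.p6) gave 11 start sites for 8 of the 9 genes. Each window searched held the 250 bases before a start, and bases after the start were not searched. An E-box, searched as CANNTG on both strands, lay in 5 of the 11 windows and in 66.2% of all 32851 windows of this length. AGGTCA, again on either strand, lay in 2 of the 11 windows and in 14.0% of all windows. The words CAGCTG and CATATG, which are forms of CANNTG, were present in 2 and 1 of the member windows and in 13.0% and 3.46% of all windows, while CAGATG was in 0 member windows and 14.4% of all. An exact direct repeat of AGGTCA spaced by 5 bases, the arrangement of classical RA response elements, was in 0 of the 11 windows and in 0.00913% of all. Repeats with any other letter in either word were not searched, and so rare a match says little when absent from 11 windows. The windows of Neurog2, Atoh1 and Neurod4 held neither word.

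The sequences below are written 5′ to 3′ along the gene's strand, with capitals on the E-box or on TGACCT, the reverse complement of AGGTCA. Neurog1 and Neurod1, which stand on opposite sides of the comparison that follows, are shown at length, and the others as 26 bases around the word. Long stretches were kept only outside annotated exons and genes. Neurog2 was considered as well, but its window left too short a stretch of this kind. The Neurog1 stretch is chr13:56252181-56252430 on the minus strand, directly before the start. The Neurod1 stretch is chr2:79456786-79456886 on the minus strand, 150 to 250 bases before the RefSeq start. The Neurog3 site is chr10:62132915-62132940 on the plus strand, 165 bases before the start. The Tcf3 site is chr10:80433674-80433699 on the minus strand, 54 bases before the start. Tcf12 has 3 starts, and its sites, all on the minus strand, are chr9:72112044-72112069, chr9:72111335-72111360 and, for AGGTCA, chr9:71896254-71896279, which lie 240, 149 and 173 bases before their own starts.
Neurog1: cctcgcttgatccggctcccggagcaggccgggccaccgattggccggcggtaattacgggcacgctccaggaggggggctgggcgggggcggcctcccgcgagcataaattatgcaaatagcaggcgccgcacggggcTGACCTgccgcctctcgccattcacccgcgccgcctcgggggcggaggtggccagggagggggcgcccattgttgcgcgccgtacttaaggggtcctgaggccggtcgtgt
Neurod1: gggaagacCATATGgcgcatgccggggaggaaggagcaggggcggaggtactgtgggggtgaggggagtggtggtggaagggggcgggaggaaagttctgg
Neurog3: gtccggaatcCAGCTGtgctctgcgg
Tcf3: tgggcgtggtCACTTGggggcgtggc
Tcf12, most upstream start: agatgctgccCAGCTGcgtccccgtc
Tcf12, middle start: cagggcggccCAAGTGggaggtggag
Tcf12, most downstream start: atacagtgtgTGACCTttgtatattt
A match is a description of the letters, and binding at these words was not measured here.

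The identity of the 2 states was checked on marker genes. All 6 pluripotency markers were down-regulated in NCs, Pou5f1 from 832 to 37.1 FPKM, and all 5 RA response markers were up-regulated, Cyp26a1 from 0.874 to 215 FPKM. Of 8 neural progenitor markers, 6 were up-regulated and 1 down-regulated. Pax6 had 3.64 FPKM in ESCs and 65.2 in NCs, Sox1 had 1.77 and 21.8, and Sox2 had 258 and 74.1.

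In mRNA level relative to ESCs, markers of neurons went against the name NC. The paper cites earlier work in which ESCs given RA had a neuronal shape and expressed neuronal markers by 48 h. Cell shape and protein were not measured here. Of 11 neuron markers, 9 passed the minimum, 0 were up-regulated and 6 were down-regulated. The other 3 past the minimum, Map2, Rbfox3 and Elavl4, were lower by 1.35, 1.34 and 1.48-fold. The summed FPKM of the 11 was 197 in ESCs and 27.4 in NCs. Stmn2, a microtubule regulator of growing axons, had 142 FPKM in ESCs and 11.8 in NCs. Tubb3, Nefl, Elavl3 and Syp were lower in NCs by 4.43, 3.24, 7.95 and 4.01-fold. Dcx, chosen after its value was seen, was the one neuron marker at least 2-fold higher, at 0.0140 and 0.334 FPKM. NC is used below only as the study's name for cells given RA for 2 days.

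Markers of other germ layers were present at low levels. Of 7 endoderm markers, 5 passed the minimum and 4 were up-regulated, with a summed FPKM of 7.99 in ESCs and 20.5 in NCs. Of 7 mesoderm markers, 3 passed, 2 were up-regulated and 0 down-regulated, with sums of 4.50 and 10.9 FPKM. Meox1 had 0.253 FPKM in ESCs and 5.43 in NCs, and Pdgfra had 0.983 and 2.82. The mesoderm gene T, which stayed under the minimum and was chosen after its value was seen, had 0.628 and 0.299 FPKM. Whether cells of these kinds contributed to the values of the 9 genes was not tested.

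The 6 proneural genes were weakly expressed in both conditions, with Neurod1 in ESCs as the exception. Of the 6, 5 stayed under 1 FPKM in both conditions, and in NCs all 6 were under 1 FPKM. The 3 E-protein genes ranged from 6.53 to 61.7 FPKM in ESCs and, in NCs, from 11.3 to 82.2 FPKM. With the FPKM minimum, 4 of the 9 genes could be counted (Neurod1, Tcf3, Tcf4 and Tcf12). Tcf12 was the 1 gene counted as up-regulated and Neurod1 the 1 counted as down-regulated, beside 12.5% and 10.6% of all entries. The median log2 ratio of all 9 genes was 0.41, and over all entries above 0 in both conditions it was -0.01. In a culture measured in bulk, fewer cells that express a gene and less of its mRNA per cell cannot be told apart, and this holds for every value below.

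**Figure D1:**
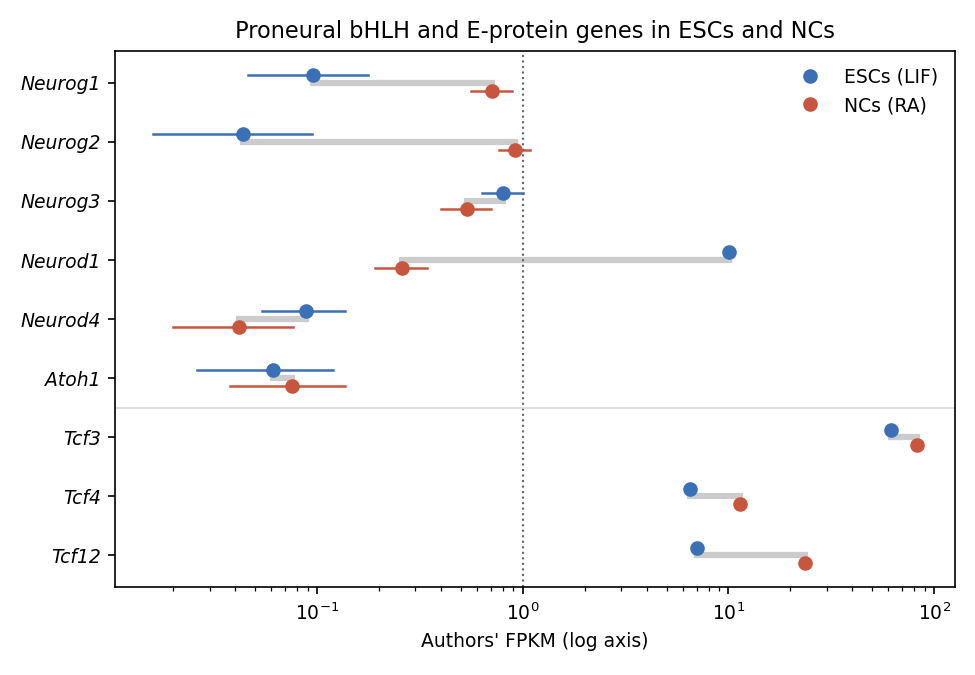
Deposited FPKM (log axis) of the 6 proneural genes and, under the grey line, the 3 E-protein genes, with 1 point for ESCs and 1 for NCs, each pooled by the authors over 3 samples. Thin lines on the proneural genes are 95% intervals for counting error only, and the dotted line marks 1 FPKM. Neurod1 alone moved leftward across the dotted line, and the 3 E-protein genes were all to the right in NCs.

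How many fragments stand behind the low values was read from the values themselves, since depth is not given in the table. In genes with 1 transcript the lowest FPKM values clustered, and the most crowded points were read as the worth of 1 fragment. Fragment lengths from 100 to 300 bases were tried. A length of 200 bases was kept because it put the largest share of values at these points. For 1 kb of usable transcript, a fragment in ESCs was worth 0.0120 or 0.0138 FPKM, and a fragment in NCs 0.00715 or 0.0135 FPKM. Of the values read, 201 in ESCs and 269 in NCs, 61.7% and 60.6% lay within 2% of these. The length was kept for the size of these shares, so they are no independent check of it. Counts and 95% exact intervals below use the larger worth, which gives the smaller counts, and cover counting error only. They take each gene at the length of its longest transcript, which gives the larger counts where a gene has several. No member lay at or under the floor of 3 fragments in either condition.

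Neurog2, a neurogenin of cortical and spinal progenitors, had 0.0436 FPKM in ESCs against 0.913 FPKM in NCs, which is 21.0-fold higher in NCs. About 6 fragments stood behind the ESC value and about 137 behind the NC value, and the interval of the ratio ran from 9.38-fold to 58.1-fold. A higher ratio was found for 180 (0.990%) of the 18191 entries with FPKM above 0 in both conditions. The NC value still lay just under 1 FPKM, at the 44.8th percentile of all entries, and on the scale of log2(FPKM + 1) the difference was 0.87. Neurog2 has 2 exons (chromosome 3, 127633135 to 127635631, plus strand, GENCODE M21 on GRCm38) and shares no exonic sequence of 50 bases with another gene.

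Neurog1, a neurogenin of cranial placodes and of sensory neurons, was higher in NCs as well. It had 0.0958 FPKM in ESCs against 0.710 FPKM in NCs, a 7.42-fold difference with an interval of 3.83 to 16.1, from about 10 and about 78 fragments. This single-exon gene (chromosome 13, 56250478 to 56252163, minus strand) is the proneural gene whose upstream window holds TGACCT. Without an FPKM minimum, Neurog1, Neurog2 and Tcf12 were at least 2-fold higher in NCs, among 16.2% of the entries above 0 in both conditions.

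Neurog3, which directs pancreatic and intestinal endocrine cells, did not follow the other neurogenins. Its FPKM was 0.799 in ESCs against 0.536 in NCs, 1.49-fold lower in NCs with an interval of 1.04 to 2.15, so the counting error alone reached nearly to equality. That interval takes the longest of its 3 transcripts, which run from 553 to 1540 bases. With a shorter one the counts would be smaller and the interval wider. Among the 3 neurogenins it had the highest value in ESCs and the lowest in NCs. Taken over all its transcripts, Neurog3 (chromosome 10, 62133090 to 62134763, plus strand) overlaps Fam241b on the opposite strand over 273 exonic bases. Of its 50-base words, 13.3% occur in that gene. Fam241b, listed under the older symbol 2010107G23Rik, had 12.2 FPKM in ESCs against 5.56 FPKM in NCs. The library kit is not described as keeping the strand, so fragments from the shared bases cannot be told apart, and their part in the Neurog3 value was not tested.

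Neurod1 had the steepest fall of the 9 genes. Known for terminal differentiation of neurons and of insulin-producing cells, it stood at 10.1 FPKM in ESCs, the 70.5th percentile of all entries, and at 0.259 FPKM in NCs, the 36.5th percentile. This is 38.9-fold lower in NCs, with an interval of 29.3 to 52.7, from about 1844 fragments in ESCs and about 49 in NCs. Of the 13219 entries past the FPKM minimum and above 0 in both conditions, 22 had a lower ratio. In ESCs Neurod1 was higher than Tcf12 and Tcf4, and it made up 90.3% of the FPKM summed over the 6 proneural genes, against 10.2% in NCs. In NCs 6 of 11 neuron markers and all 6 pluripotency markers were down-regulated too. Whether Neurod1 and any of these are expressed in the same cells was not tested.

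The position of Neurod1 (chromosome 2, 79452521 to 79456751, minus strand, 2 exons) overlaps exons of Cerkl on the same strand over 201 bases, and 9.66% of its 50-base words occur in Cerkl or in the noncoding Gm26755. Cerkl itself had 0.579 FPKM in ESCs against 0.117 FPKM in NCs, so both genes of the pair were lower in NCs and Cerkl was at the lower level in each condition. The share of fragments assigned to Neurod1 from this overlap was not tested.

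Neurod4 and Atoh1 rested on few fragments in both conditions. Neurod4, a NeuroD gene of retinal and hindbrain neurons (chromosome 10, 130268152 to 130280240, minus strand), had 0.0884 FPKM in ESCs against 0.0415 FPKM in NCs, about 20 and 10 fragments. The ratio was 2.13-fold lower in NCs, but its interval ran from 0.951 to 5.09 and so included equality. Without an FPKM minimum Neurod4 and Neurod1 were at least 2-fold lower, among 13.2% of entries. Atoh1 (chromosome 6, 64729125 to 64731245, plus strand) had 0.0607 FPKM in ESCs against 0.0759 FPKM in NCs, a ratio of 1.25 with an interval of 0.458 to 3.58. No difference in Atoh1 was detectable at this depth.

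The order of the proneural genes by FPKM, a scale that allows for transcript length, was rearranged between the conditions. In ESCs it ran Neurod1, Neurog3, Neurog1, Neurod4, Atoh1 and Neurog2, and the counting intervals of neighbours overlapped from Neurog1 down to Neurog2. In NCs it ran Neurog2, Neurog1, Neurog3, Neurod1, Atoh1 and Neurod4. There the intervals overlapped between Neurog2 and Neurog1, between Neurog1 and Neurog3 and between Atoh1 and Neurod4, while Neurod1 stood apart from both of its neighbours. Neurog2 went from the lowest place to the highest and Neurod1 from the first to the fourth. Summed over the 6 genes, proneural FPKM was 11.2 in ESCs and 2.54 in NCs, 4.40-fold lower, but without Neurod1 the sum was 1.09 in ESCs and 2.28 in NCs, so the direction of the sum rests on Neurod1.

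**Figure D2:**
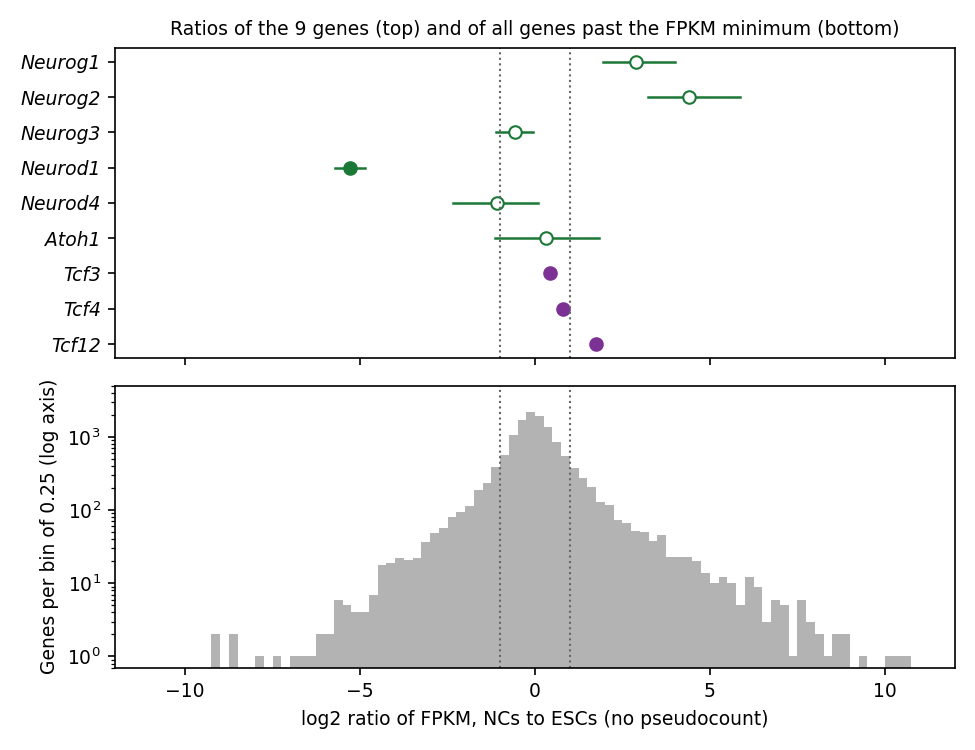
Top, log2 ratio of NC to ESC FPKM for each proneural gene (green) and E-protein gene (purple), filled where FPKM reached 1 in a condition, with 95% counting intervals as lines. Bottom, the same ratio for the 13219 entries past the FPKM minimum and above 0 in both conditions, in bins of 0.25 on a log axis. Dotted lines mark 2-fold. Neurog1 and Neurog2 lie right of the lines but under the minimum, Neurod1 lies in the far left tail and Tcf12 is the E-protein gene beyond 2-fold.

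All 3 E-protein genes had the higher FPKM in NCs. Tcf12, which encodes the E-protein HEB, had 7.01 FPKM in ESCs against 23.6 FPKM in NCs, a 3.37-fold rise. A higher ratio was found for 764 (5.78%) of the 13219 entries past the minimum and above 0 in both conditions. Tcf12 passed from the 65.5th to the 83.7th percentile of all entries. It lies on chromosome 9 (71842688 to 72111871, minus strand) and has 21 annotated transcripts with up to 21 exons, so its FPKM sums isoforms that the table does not separate.

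Tcf3, whose splice forms differ in the DNA-binding exon, was the most abundant of the 9 genes in both conditions. Its FPKM was 61.7 in ESCs and 82.2 in NCs, 1.33-fold higher in NCs (chromosome 10, 80409514 to 80433647, minus strand, 14 transcripts). Of the entries past the minimum and above 0 in both conditions, 26% had a higher ratio than Tcf3. The name Tcf3 has also been used for Tcf7l1, an HMG-box partner of β-catenin that restrains self-renewal of ESCs. Tcf7l1 has an entry of its own here, with 30.7 FPKM in ESCs against 35.1 FPKM in NCs, so the Tcf3 entry is taken as the E-protein gene.

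Tcf4, the E-protein gene of dendritic cells and of the developing brain, had 6.53 FPKM in ESCs against 11.3 FPKM in NCs. Among the entries past the minimum and above 0 in both conditions, 15.4% had a higher ratio than Tcf4. The 1.74-fold difference lay under the 2-fold limit, and with the limit at 1.5-fold Tcf4 was counted as up-regulated beside Tcf12. After rescaling to equal sums the log2 ratio of Tcf4 was 1.09 and passed 2-fold, and that of Tcf3 was 0.71. The log2 ratios of Tcf3 and Tcf4 on the deposited scale were 0.41 and 0.79. Tcf4 is long (chromosome 18, 69343356 to 69689079, plus strand), with 62 annotated transcripts.

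The E-protein pool as a whole was 75.2 FPKM in ESCs against 117.1 FPKM in NCs, 1.56-fold higher. Tcf3 supplied 20.5 of the added 41.9 FPKM, Tcf12 16.6 and Tcf4 4.80. Tcf3 made up 82.0% of the pool in ESCs and 70.2% in NCs, while the share of Tcf12 was 9.33% in ESCs and 20.2% in NCs and that of Tcf4 was 8.69% and 9.67%. Tcf3 was thus at 8.79 times the FPKM of Tcf12 in ESCs and 3.48 times in NCs. Per proneural FPKM there were 6.74 FPKM of E-proteins in ESCs and 46.2 in NCs. This direction also rests on Neurod1, since without it the ratio was 69.2 in ESCs and 51.4 in NCs.

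The Id genes, whose products sequester E-proteins, differed far more than the E-proteins. Of 4 Id genes, 3 were up-regulated and 1 was down-regulated. Id1 had 16.5 FPKM in ESCs and 149 in NCs. Id2 had 11.5 FPKM in ESCs and 167 in NCs, 14.4-fold higher. Id3 reached the highest NC level of the family, 337 FPKM, from 9.56 in ESCs. Id4 went the other way, with 2.81 FPKM in ESCs and 1.30 in NCs, a fall that no longer reached 2-fold after rescaling to equal sums. The summed Id FPKM was 40.4 in ESCs and 654 in NCs. Per FPKM of E-protein, this was 0.538 FPKM of Id in ESCs and 5.58 in NCs, a 10.4-fold difference. These are mRNA levels, and amounts or pairing of the proteins were not measured here.

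**Figure D3:**
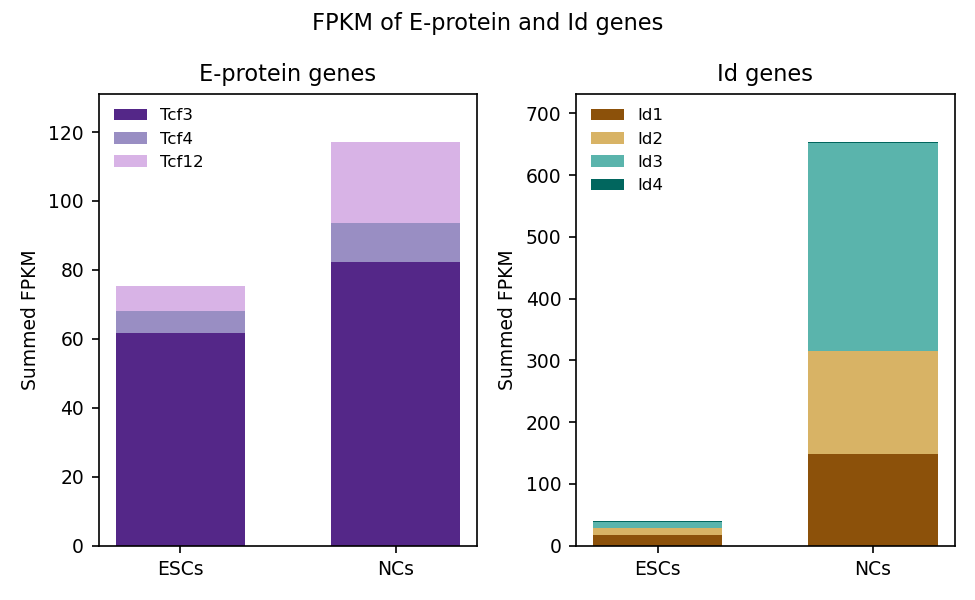
Summed FPKM of the E-protein genes (left) and of the Id genes (right) in ESCs and NCs, stacked by gene, with axes that start at 0 and differ in range. The E-protein sum was 75.2 in ESCs and 117.1 in NCs, and the Id sum was 40.4 and 654.

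The Hes and Hey genes, repressors downstream of Notch, showed no common direction. Of 9 genes in this group, 5 passed the FPKM minimum, 1 of them was up-regulated and 1 down-regulated, and their median log2 ratio was 0.14. Hes5, a Notch target of neural progenitors, had 0.592 FPKM in ESCs and 2.30 in NCs, 3.89-fold higher. Hes6, which opposes Hes1 and favours neuronal differentiation, had 32.5 FPKM in ESCs and 14.3 in NCs, and its 2.27-fold fall did not reach 2-fold after rescaling. Hes1, chosen after its value was seen, was at 20.1 and 20.6 FPKM.

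Among 12 cofactors of E-proteins, 9 passed the minimum, 3 were up-regulated and 2 down-regulated, with a median log2 ratio of 0.09. The 3 were LIM-only genes, whose products bridge bHLH dimers to Ldb1. Lmo4 had 6.60 FPKM in ESCs and 26.1 in NCs, Lmo1 had 1.34 and 3.33, and Lmo2 had 0.565 and 1.46. The corepressor gene Cbfa2t2 was 2.23-fold lower in NCs (21.0 against 9.40 FPKM) and the acetyltransferase gene Kat2b 2.36-fold lower (12.7 against 5.39 FPKM). Both falls stayed under 2-fold after rescaling.

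Outside the 9 genes, 13 other bHLH genes of the neural lineage were mostly as weakly expressed. In ESCs all 13 were under 1 FPKM and in NCs 12 were. Atoh8, a more distant relative of Atoh1 that is also found outside the nervous system, was the 1 gene past the minimum and was up-regulated, with 0.0598 FPKM in ESCs and 3.96 in NCs, above every proneural member in NCs.

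Genes known from other systems as targets of proneural factors gave a mixed picture. Of 28, 12 passed the minimum, 4 were up-regulated and 3 down-regulated, and the median log2 ratio was 0.27, against -0.03 over all entries past the minimum. Sox4 had 16.5 FPKM in ESCs and 61.6 in NCs (3.74-fold), and Sox11 had 7.42 and 16.6, a 2.24-fold rise. Both encode SoxC factors of early neurons. Lhx2 had 0.222 FPKM in ESCs and 2.91 in NCs. The Notch ligand gene Dll3 was 2.36-fold lower in NCs (5.62 against 2.38 FPKM), and Mfng, a glycosyltransferase that modifies Notch, was 2.20-fold lower (8.52 against 3.87 FPKM). None of the 3 falls in this group reached 2-fold after rescaling.

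**Figure D4:**
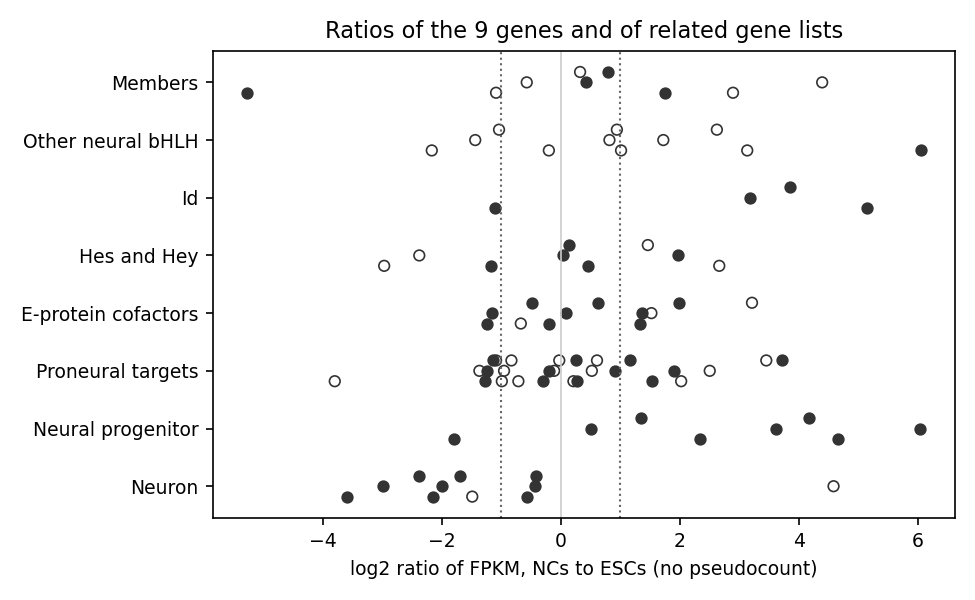
log2 ratio of NC to ESC FPKM for the 9 genes and for 7 related groups, 1 point a gene, filled where FPKM reached 1 in a condition, with dotted lines at 2-fold. Vertical offsets within a group only separate the points. Genes listed at 0 in a condition are left out. In the Id group 3 of 4 genes lie right of the lines, and in the neuron group all filled points lie left of 0.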

How the data were processed

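RNA was sequenced from 3 ESC and 3 NC samples of E14Tg2a cells. Per the labels and the study's methods, the authors aligned TruSeq reads to mm10 with TopHat 2.0.8, which calls Bowtie2 2.1.0, ran Cufflinks 2.0.2 and Cuffmerge, and used Cuffdiff, whose version is not given in the sources used here. The deposited table holds 1 FPKM per gene and condition, pooled over replicates by the authors. The NC column is headed FPK, which was read as FPKM. Columns with the authors' fold change, test statistic, p-value, q-value and calls were not used. Depth per sample is unknown.

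Ratios were computed without a pseudocount. The design had allowed for no test, since the values are pooled. The 9 genes and the gene lists were chosen with earlier results of these data known. From each list other than the marker sets, the genes past both criteria were named, up to the 5 with the highest FPKM. Further genes of lists with at most 8 genes were named where a range needed them. From the marker sets only some of the genes past both criteria were named, as examples. No gene was ranked by likeness of pattern, since 2 conditions give no pattern. The 13 lists covered other neural bHLH genes, E-protein partners elsewhere, Id genes, Hes and Hey genes, cofactors, proneural targets, Tcf and Lef genes and 6 sets of markers, and 1 gene of the neural bHLH list is not reported here. Fragment numbers were estimated by a method chosen after seeing the data. Positions came from GENCODE M21, and upstream sequences and older symbols from RefSeq (GRCm38.p6). Alternatives were pseudocounts of 0.1 and 1, other filters, limits of 1.5-fold and 4-fold, centring on the median and rescaling to equal sums. The calls were tested on simulated data for ESCs against NCs with 11717 genes, modelled on those of at least 1 FPKM in each condition. Planted differences were 4-fold, with noise small beside the 2-fold limit. Of these, 100 of 100 planted higher and 100 of 100 planted lower were recovered, and 0 of 11517 others were called. These settings fixed the outcome, so it checks the code only and says nothing of genes under 1 FPKM. Versions were matplotlib 3.10.9, pandas 2.3.3, scipy 1.17.1, numpy 2.4.6 and Python 3.11.15.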

Additional observations from a re-analysis of the deposited data

How the results depend on the processing

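No paired analysis was possible because the table holds 1 pooled value per condition, and for the same reason no replicate could be left out. Under pseudocounts, centring and rescaling, all 36 recomputed log2 ratios of the 9 genes kept their sign. This outcome was fixed in advance. A pseudocount added to both values cannot change a sign, and centring and rescaling moved ratios up by less than any member's fall. By the criteria of the report, 1 of 4 countable members was higher (Tcf12), beside 12.5% of all countable entries. With no filter beyond FPKM above 0 in both conditions it was 3 of 9 (with Neurog1 and Neurog2), beside 16.2%. After rescaling to equal sums it was 3 of 5 (with Neurog2 and Tcf4), beside 18.3%. With a 1.5-fold limit it was 2 of 4 (with Tcf4), beside 20.6%, and with a 4-fold limit 0 of 4, beside 5.11%. Those counted as lower numbered 1 of 4 (Neurod1), beside 10.6%, and 2 of 9 without the filter (with Neurod4), beside 13.2%. They numbered 0 of 3, beside 7.89%, when FPKM had to reach 1 in both conditions, since Neurod1 is under 1 in NCs. Over all entries, 1658 were counted as higher and 1412 as lower. With a pseudocount of 1, 1074 were higher. Without the filter 2947 were higher and 2403 lower, with 1 FPKM in both conditions 873 and 924, with a 1.5-fold limit 2741 and 2573, and with a 4-fold limit 679 and 488. After rescaling, 2477 were higher and 980 lower. The log2 ratio of the summed E-protein FPKM was 0.64, and 1.37 without Tcf3 or 0.93 after rescaling. That of the summed proneural FPKM was -2.14, and -1.84 after rescaling, but 1.07 without Neurod1, which holds most of the ESC sum. That of summed Id per summed E-protein FPKM was 3.38, and 2.72 without Id3 or 2.65 without Tcf3. In alternatives chosen after seeing the data, the log2 ratio of summed E-protein per summed proneural FPKM was 2.78, but -0.43 without Neurod1, and that of the summed partners outside the nervous system was -0.54, but 0.98 without Tcf15. The members' values under 0.1 FPKM rest on an estimated 6 to 23 fragments, and the spread between replicates is unknown for every value.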

Other observations

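The E-protein genes also have partners outside the nervous system, and several of these were at higher FPKM than any proneural gene in NCs. Of 21 such bHLH genes in the table, 9 passed the FPKM minimum, 4 were up-regulated and 3 down-regulated in NCs. Twist1, a gene of cranial neural crest and mesenchyme, had 1.76 FPKM in ESCs and 14.4 in NCs, an 8.15-fold rise. Hand2, a gene of heart, limb and sympathetic neurons, had 0.0447 FPKM in ESCs and 3.11 in NCs, and Scx, a gene of tendon progenitors, had 1.51 and 3.72. Tcf15, a gene of somites that is also on in ESCs about to leave self-renewal, had 36.4 FPKM in ESCs and 5.37 in NCs, 6.78-fold lower. It was thus above Neurod1 in both conditions. Ascl2, a gene of trophoblast and intestinal stem cells, was 2.95-fold lower, at 2.65 and 0.899 FPKM. Summed over the group, FPKM was 51.7 in ESCs and 35.5 in NCs, but without Tcf15 it was 15.3 and 30.1, so the direction of the sum rests on Tcf15.

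The HMG-box genes that share the Tcf name with the E-proteins act in Wnt signaling and form a separate family. Of the 4, 1 was up-regulated and 1 down-regulated. Tcf7 had 64.0 FPKM in ESCs and 34.8 in NCs, a level close to that of Tcf3 in ESCs, and was 1.84-fold lower in NCs. Tcf7l2 had 1.38 and 3.28 FPKM, 2.39-fold higher. Lef1 had 2.69 and 1.29 FPKM, and its 2.09-fold fall did not reach 2-fold after rescaling to equal sums.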
